A study of Mus musculus with 2 samples.

Results

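The transcripts of p53 and of 9 genes tied to it were examined in whole testes of 9-day-old mice. The 10 genes were chosen by symbol for their place in the pathway, with earlier results of these data known. They are *Trp53*, which encodes p53, its inhibitors *Mdm2* and *Mdm4*, and 7 targets that p53 switches on, *Cdkn1a*, *Ccng1*, *Bax*, *Bbc3*, *Pmaip1*, *Phlda3* and *Sesn2*. All 10 were found by Ensembl identifier among the 39695 gene entries of the RNA sequencing data, and all 10 passed the filter, which asked for an RPKM of 1 or more on average. RPKM is the number of reads on a gene scaled to its length and to the size of the library. One library came from control males, which were Bcas2 F/- so that a deleted *Bcas2* allele stood beside the floxed one and no Cre was present. The other came from Bcas2 F/-;Vasa-Cre males, which carried the same 2 alleles and the *Vasa-Cre* transgene. The deleted allele was thus shared by both groups, and the control is not a wild type. *Vasa-Cre* is active in germ cells from late fetal life, so that Sertoli, Leydig and other somatic cells of the mutant testes keep the floxed allele. The labels give C57BL/6 as the strain, whereas the methods of the study describe a mixed genetic background, and the number of mice in each library is not named in either. Each genotype had 1 library, which leaves the differences without a check by replicates and without p-values.

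p53 is a transcription factor that is held at a low level in unstressed cells. MDM2 marks p53 for degradation and MDM4 blocks its activity, and *Mdm2* is itself switched on by p53, which closes a feedback loop. When DNA is damaged or ribosome production or splicing is disturbed, p53 is freed from these inhibitors, mostly by changes to the proteins, and raises the transcripts of genes that halt the cell cycle, repair DNA or kill the cell. BCAS2, a subunit of the PRP19 complex of the spliceosome, is also known to bind p53 and to lower its activity. In the testis, p53 takes part in the removal of damaged germ cells. The question asked of these data was whether the transcripts of p53, its inhibitors and its targets differed when *Bcas2* was deleted in germ cells.

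p53 binds a response element of 20 bases built from 2 copies of a 10-base unit placed side by side. In each unit the core of 4 bases starts with C and ends with G. Promoter windows of RefSeq on GRCm38.p6, from 250 bases before to 50 bases after each transcript start, were searched for the p53 response element with all 4 core C and G positions kept and at most 3 mismatches in 20 bases. The unit reads the same on both strands, so that a search of a single strand covers both. Of the 10 genes, 9 had a window and 4 held such an element. These 4 sequences are shown because they match the element within these limits, with the core of each unit in capitals.

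*Cdkn1a*, chr17:29090928-29090947, plus strand, 51 to 32 bases before the start of its upstream transcript, 1 mismatch: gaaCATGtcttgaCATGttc

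*Ccng1*, chr11:40755462-40755481, minus strand, 195 to 176 bases before the start, 1 mismatch: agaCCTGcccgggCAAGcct

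*Bbc3*, chr7:16309486-16309505, plus strand, 97 to 78 bases before the start of a transcript that begins inside the annotated gene, 3 mismatches: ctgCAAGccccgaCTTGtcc

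*Trp53*, chr11:69580284-69580303, plus strand, 75 to 56 bases before the start, 3 mismatches: ggaCTTGcccttaCTTGtta

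Among all 32851 windows, 1.38% held an element with at most 3 mismatches and 0.067%, or 22 windows, held one with at most 1 mismatch. Only stretches that kept all core C and G positions were compared. The closest of them had 9 mismatches in the windows of *Mdm2* and *Sesn2*, 7 in those of *Mdm4* and *Bax* and 5 in that of *Phlda3*. A window covers only the bases beside the transcript start, and p53 is known to bind *Mdm2* and other targets inside the gene. A match describes the letters and is not a measurement of binding.

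The targeted gene was examined first. *Bcas2* (ENSMUSG00000005687, chromosome 3 from 103171655 to 103179166, GRCm38) was at 39.5 RPKM (1410 reads) in control testes and at 25.7 RPKM (888 reads) in testes with *Vasa-Cre*. Its log2 ratio of RPKM + 1, mutant over control, was −0.60, past the 1.5-fold limit. Its 95% interval (Clopper-Pearson, on the log2 RPKM ratio without the added 1) ran from −0.75 to −0.50 and, like all intervals here, covers counting error only. Gene-level reads also count exons outside the deleted stretch and transcripts of somatic cells.

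Across all 14831 genes that passed the filter, the median log2 ratio was 0.015 with an SD of 0.26. Of these, 53.7% had a log2 ratio above 0, 1.57% were more than 1.5-fold higher and 1.69% more than 1.5-fold lower. Reads were recovered from the RPKM values, with library sizes of 19918750 in the control and 19331687 in the mutant. The 6 markers of all germ cells were all lower in the mutant, with a median log2 ratio of −0.38, whereas the 8 Sertoli cell markers were all higher, with a median of 0.16. The medians of the other marker lists were −0.25 for undifferentiated spermatogonia, −0.46 for differentiating spermatogonia, −0.37 for meiosis prophase I, 0.36 for Leydig cells and −0.32 for red blood cells, and between −0.16 and −0.049 for macrophages, endothelial and peritubular myoid cells. In whole testes, fewer cells of a type and less RNA per cell cannot be told apart. By real-time RT-PCR with replicates at the same age, the study found similar mRNA levels of *Ddx4*, *Dazl*, *Kit*, *Sohlh1* and *Stra8* in both genotypes. In that assay *Dmc1*, *Sycp1*, *Sycp3* and *Smc1b* were significantly lower. The lower values of spermatogonial genes here rest on 1 library per genotype. The 4 neutrophil genes tested were lower, with a median of −2.11, and 5 of 11 immediate-early genes were more than 1.5-fold lower. The part of these marker changes in the values of the p53 genes was not tested.

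None of the 10 genes was more than 1.5-fold higher (0 of 10, against 1.57% of all genes tested) or more than 1.5-fold lower (0 of 10, against 1.69%), where 3.26% of all genes passed in either direction. With the counting interval required as well, the shares of all genes were 0.748% higher and 1.27% lower, again with 0 of 10 in each direction. The log2 ratios of RPKM + 1 ran from −0.29 for *Cdkn1a* to 0.29 for *Mdm4*, with a median of 0.023. All 10 lay within 1.25-fold, as did 87.7% of all genes tested and 91.4% of the 9809 genes with as many control reads as the 10. This holds with 1 added to the RPKM, since without it *Cdkn1a*, at a log2 RPKM ratio of −0.35, lay past 1.25-fold. In the 10, 5 were higher and 5 were lower in the mutant library, where 53.7% of all genes tested were higher. The interval of counting error stayed above 0 for *Mdm2*, *Mdm4* and *Sesn2*, 3 of 10 against 19.8% of all genes, and below 0 for *Ccng1* and *Bax*, 2 of 10 against 17.5%. In either direction this makes 5 of 10, where the share was 37.3% of all genes. The spread between animals, which 2 libraries cannot show, is not part of these intervals, so that an interval past 0 sets the libraries apart and not the genotypes. The summed RPKM of the 10 genes was 316 in the control and 313 in the mutant.

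**Figure D1:**
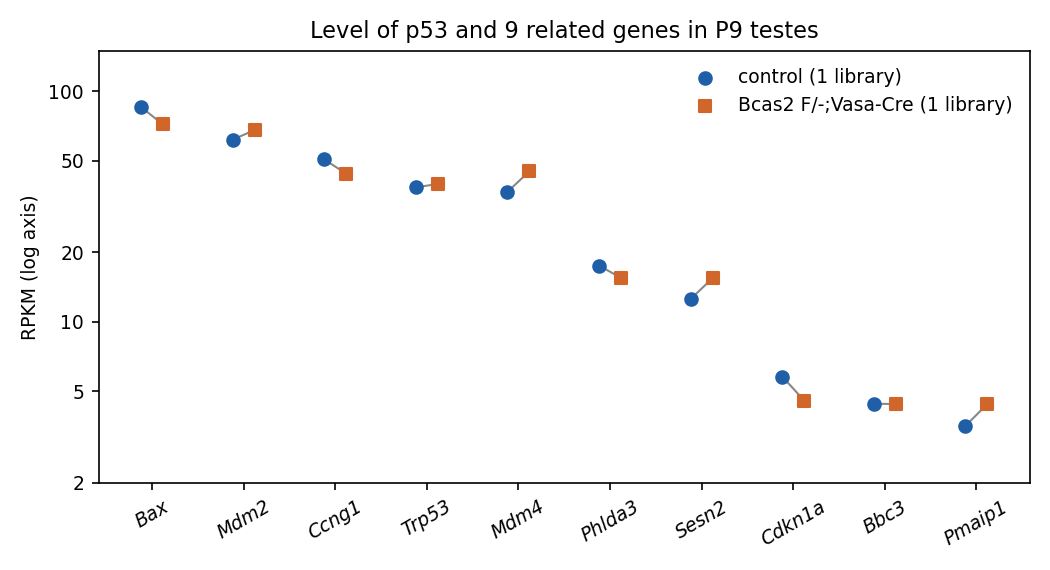
RPKM of *Trp53* and 9 related genes on a log axis, with 1 circle for the control and 1 square for the Bcas2 F/-;Vasa-Cre library, ordered by the control level. Levels span from 3.53 for *Pmaip1* to 85.4 for *Bax* in the control, and the 2 points of each gene lie close together beside that span.

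*Trp53* (ENSMUSG00000059552, chromosome 11 from 69580359 to 69591873, plus strand) had an RPKM of 38.3 in the control and 39.6 in the mutant library, from 1386 and 1393 reads. The 2 levels were nearly equal, with a log2 ratio of 0.05 and an interval from −0.06 to 0.16. Of the 3350 genes in the RPKM class of 20 to 50, 60.4% had a lower log2 ratio, so that *Trp53* lay near the middle of its class. A processed copy of the gene, *Trp53-ps*, is 94.9% identical to the parent over 1170 aligned bases and was listed at 0 in both libraries. These values concern the transcript, and p53 is mainly controlled as a protein, which was not measured here.

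Both inhibitors had a higher level in the mutant library. *Mdm2* (ENSMUSG00000020184, chromosome 10 from 117688875 to 117710758, minus strand), which encodes the ubiquitin ligase of p53, had an RPKM of 61.6 in the control and 67.9 in the mutant, from 2065 and 2209 reads. Its log2 ratio was 0.14 with an interval from 0.05 to 0.23, and 83.9% of the 1519 genes in the RPKM class of 50 to 100 had a lower one. *Mdm2* is the target through which p53 limits itself, and its difference was small beside the 1.5-fold limit.

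*Mdm4* (ENSMUSG00000054387, chromosome 1 from 132959484 to 133030561, minus strand), which encodes the relative of MDM2 that masks the activation domain of p53, had an RPKM of 36.6 in the control and 45.0 in the mutant, from 1973 and 2355 reads. Its log2 ratio of 0.29, with an interval from 0.21 to 0.39, was close to those of *Sesn2* and *Pmaip1*, and 98.0% of the genes of its RPKM class had a lower one. The order of these 3 genes depended on the added 1, and without it *Pmaip1* stood at 0.32, *Sesn2* at 0.30 and *Mdm4* at 0.30. Of the 10 genes it is annotated with the most transcripts, 14, and the gene-level value adds up full-length and exon-skipped forms. A copy, *Mdm4-ps*, is 94.1% identical to *Mdm4* over 4187 of its 6514 bases and was looked at after the values were seen. It had 509 reads in the control and 596 in the mutant, a log2 ratio of 0.22, so that reads could have been split between the gene and the copy. With the reads of both added, the log2 ratio was 0.29 with an interval from 0.22 to 0.37, as for *Mdm4* alone. The summed RPKM of *Mdm2* and *Mdm4* was 98.2 in the control and 112.9 in the mutant.

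The 2 targets that act on the cell cycle were lower in the mutant library. *Cdkn1a* (ENSMUSG00000023067, chromosome 17 from 29090976 to 29100727, plus strand) encodes p21, the inhibitor of cyclin-dependent kinases through which p53 halts the cell cycle. Its RPKM was 5.78 in the control and 4.55 in the mutant, from 135 and 103 reads. The log2 ratio was −0.29. At the gene length used, 1172 bases, the interval ran from −0.73 to 0.03 and reached past 1.5-fold lower. The direction was within counting error at that length, whereas at 2344 bases the interval would run from −0.62 to −0.080. Only 7.29% of the 4652 genes in the RPKM class of 5 to 20 had a lower log2 ratio. The element with 1 mismatch shown above lies in front of this gene. A transcript of unsettled class on the other strand, AC167363.2, shares 7.68% of the exon bases of *Cdkn1a*, and the library kit is not stated to keep the strand.

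*Ccng1* (ENSMUSG00000020326, chromosome 11 from 40748552 to 40755311, minus strand) encodes cyclin G1, a p53 target that recruits a phosphatase to MDM2. It had an RPKM of 50.6 in the control and 43.9 in the mutant, from 2176 and 1832 reads. The log2 ratio was −0.20 with an interval from −0.30 to −0.11, and 11.2% of the genes of its class had a lower one. *Ccng1* is the second gene with an element of 1 mismatch in its promoter window, and its difference was smaller than 1.25-fold.

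The 4 targets of the apoptosis arm did not share a direction. *Bax* (ENSMUSG00000003873, chromosome 7 from 45461697 to 45466898, minus strand), which encodes the effector that opens the outer mitochondrial membrane, was the most abundant of the 10 in both libraries. Its RPKM was 85.4 in the control and 71.8 in the mutant, from 1479 and 1207 reads, with a log2 ratio of −0.25 and an interval from −0.36 to −0.14. In its RPKM class 6.19% of the genes had a lower log2 ratio. *Bax* shares 192 of its 1576 exon bases, or 12.2%, with the gene Gm45808 on the same strand, found when overlaps of all 10 genes were searched and not analysed here.

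*Bbc3* (ENSMUSG00000002083, chromosome 7 from 16308393 to 16318205, plus strand) and *Pmaip1* (ENSMUSG00000024521, chromosome 18 from 66458533 to 66465565, plus strand) encode PUMA and NOXA, BH3-only proteins that release BAX and its relatives from their inhibitors. *Bbc3* had an RPKM of 4.40 in the control and 4.39 in the mutant, from 93 and 90 reads. Its log2 ratio was −0.0034 and its interval, from −0.44 to 0.43, was nearly symmetric around 0. *Pmaip1* had an RPKM of 3.53 in the control and 4.40 in the mutant, from 124 and 150 reads, with a log2 ratio of 0.25 and an interval from −0.035 to 0.67. Both BH3-only genes were low in both libraries, and their intervals were among the 3 widest of the 10, together with that of *Cdkn1a*. The number of reads on *Pmaip1* depends on the gene length used for the RPKM, and at a length of 2646 in place of 1764 bases the interval would run from 0.031 to 0.61.

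*Phlda3* (ENSMUSG00000041801, chromosome 1 from 135766119 to 135769136, plus strand) encodes a small protein that keeps the kinase AKT from the membrane and so favours cell death. It had an RPKM of 17.5 in the control and 15.5 in the mutant, from 350 and 300 reads. The log2 ratio was −0.17 and the interval, from −0.41 to 0.047, reached past 0. The summed RPKM of *Bax*, *Bbc3*, *Pmaip1* and *Phlda3* was 110.9 in the control and 96.1 in the mutant, and *Bax* made up most of it.

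*Sesn2* (ENSMUSG00000028893, chromosome 4 from 132492032 to 132510501, minus strand) encodes sestrin 2, a leucine sensor that restrains mTORC1 and is also induced by stress pathways other than p53. Its RPKM was 12.5 in the control and 15.5 in the mutant, from 868 and 1039 reads. The log2 ratio of 0.28, with an interval from 0.17 to 0.43, lay beside that of *Pmaip1* at the upper end of the 7 targets, and 93.3% of the genes of its class had a lower one. Of the 7 targets, 2 were higher and 5 were lower in the mutant, where 53.7% of all genes tested were higher. Their median log2 ratio was −0.17, and their summed RPKM was 179.9 in the control and 160.1 in the mutant.

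**Figure D2:**
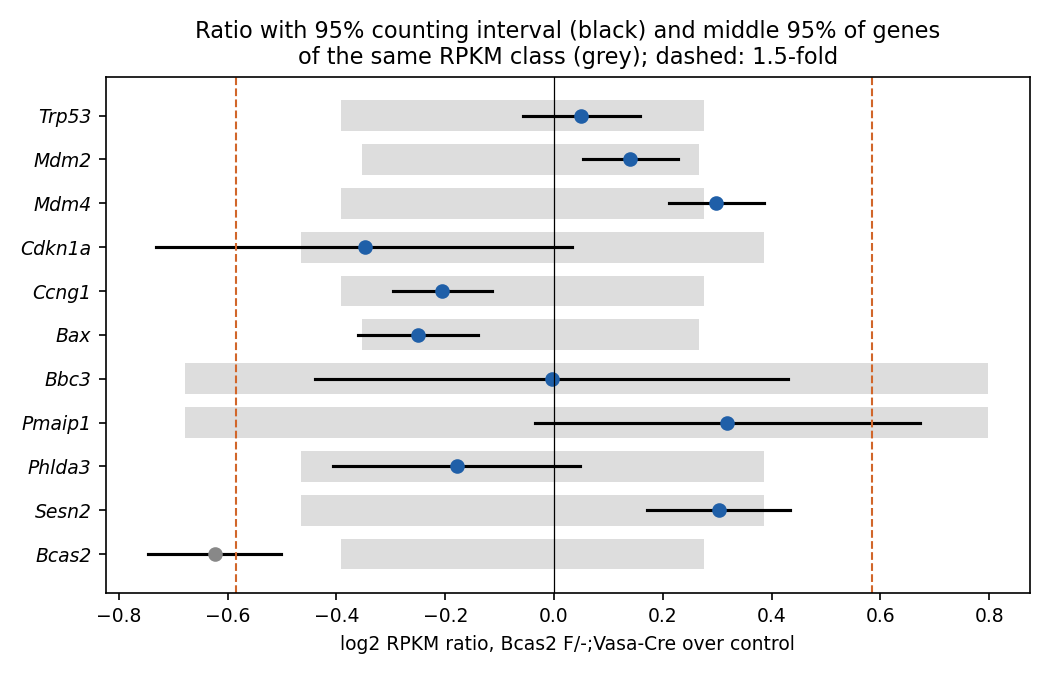
Log2 RPKM ratio, Bcas2 F/-;Vasa-Cre over control, of the 10 genes (blue) and *Bcas2* (grey), without a pseudocount. Black lines are 95% counting intervals, grey bands hold the middle 95% of the genes in the same RPKM class on the log2 scale of RPKM + 1, and dashed lines mark 1.5-fold. Only the point of *Bcas2* lies past a dashed line, and of the 10 genes only *Mdm4* lies outside its band.

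The order of the levels in the control was *Bax*, *Mdm2*, *Ccng1*, *Trp53*, *Mdm4*, *Phlda3*, *Sesn2*, *Cdkn1a*, *Bbc3* and *Pmaip1*. In the control, the neighbours *Trp53* and *Mdm4* and the neighbours *Bbc3* and *Pmaip1* could not be set apart beyond counting error in RPKM, and *Cdkn1a* was barely above *Bbc3*. In the mutant the order was *Bax*, *Mdm2*, *Mdm4*, *Ccng1*, *Trp53*, *Phlda3*, *Sesn2*, *Cdkn1a*, *Pmaip1* and *Bbc3*. *Mdm4* moved from the fifth to the third place. Here the pairs *Bax* and *Mdm2*, *Mdm4* and *Ccng1*, *Phlda3* and *Sesn2*, *Cdkn1a* and *Pmaip1*, and *Pmaip1* and *Bbc3* were not apart beyond counting error.

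Ratios of levels within a library do not depend on how the libraries were scaled to each other. They do depend on the gene lengths behind the RPKM, which are not given in the sources used here. The RPKM of *Mdm2* was 1.61 times that of *Trp53* in the control and 1.71 times in the mutant. For *Mdm4* over *Trp53* the ratio was 0.956 in the control and 1.14 in the mutant. In RPKM, the inhibitors were thus present at levels like or above that of the p53 transcript in both libraries, with *Mdm4* passing it in the mutant. Another length of *Mdm4* or *Trp53* could change which of these 2 is higher. The RPKM of *Bax* was 2.23 times that of *Trp53* in the control and 1.81 times in the mutant. *Cdkn1a* stood far lower, at 0.151 times the level of *Trp53* in the control and 0.115 times in the mutant. For *Bax* over *Mdm2* the ratio was 1.39 in the control and 1.06 in the mutant, so that the 2 most abundant genes came close to each other.

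**Figure D3:**
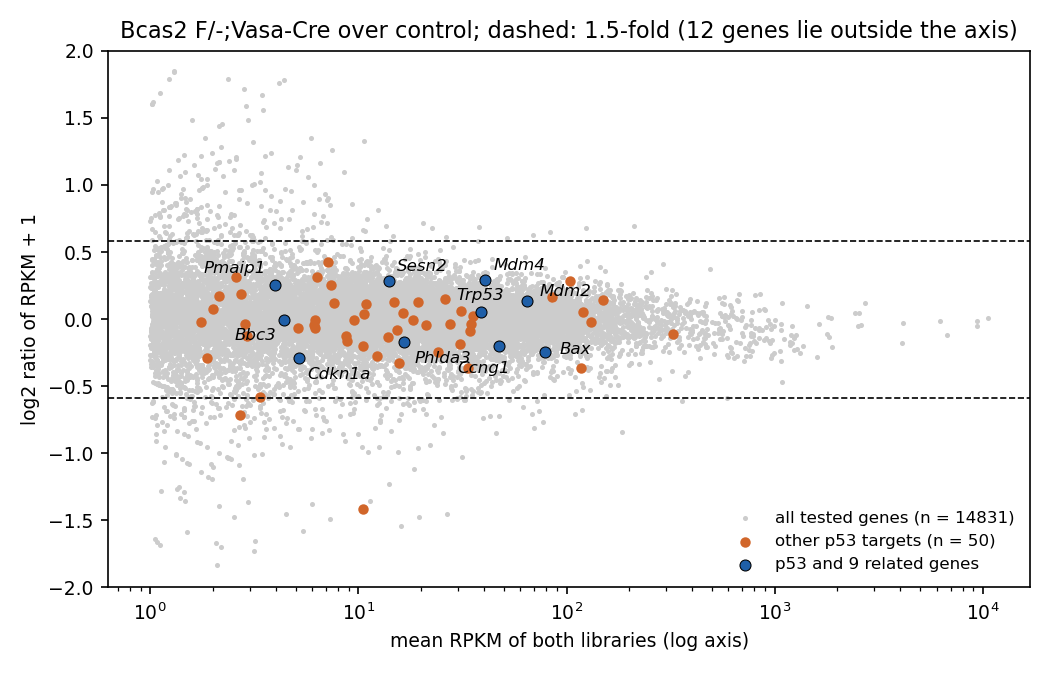
Log2 ratio of RPKM + 1, Bcas2 F/-;Vasa-Cre over control, against the mean RPKM of both libraries on a log axis, for all 14831 genes tested (grey), 50 other p53 targets (orange) and the 10 genes (blue, named). The 10 genes all lie between the dashed lines at 1.5-fold, 2 of the 50 other targets lie below them, and 12 genes lie outside the axis.

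The wider pathway was examined in lists drawn from general knowledge. Of 23 regulators and relatives of p53, 21 were tested, with a median log2 ratio of 0.026 against 0.015 for all genes. None was more than 1.5-fold higher, against 1.57% of all genes, and 1 (4.76%) was more than 1.5-fold lower, against 1.69%. This gene was *Cdkn2a*, which encodes p16 and, in another reading frame, ARF, the protein that holds MDM2 away from p53. *Cdkn2a* had an RPKM of 34.2 in the control and 22.2 in the mutant, from 595 and 375 reads, with a log2 ratio of −0.60 and an interval from −0.81 to −0.43. The RPKM does not tell p16 from ARF transcripts. With RPKM rescaled to the same sum in both libraries, *Cdkn2a* was no longer past 1.5-fold. The germ cell and neutrophil markers given above were lower in the same library, and their part in the value of *Cdkn2a* was not tested. *Trp63* and *Trp73*, the relatives of p53, were under the filter.

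Of 56 further targets of p53, 50 were tested, with a median log2 ratio of −0.029. In the mutant 20 were higher and 30 lower, where 53.7% of all genes tested were higher. None of the 50 was more than 1.5-fold higher, against 1.57% of all genes, and 2 of them (4.0%) were more than 1.5-fold lower, against 1.69%. Both belong to the 9 tested genes of secreted and membrane proteins, of which 4 were higher and 5 lower, with a median of −0.023. *Thbs1*, the matrix protein thrombospondin 1, had an RPKM of 15.8 in the control and 5.29 in the mutant, from 1021 and 333 reads, and a log2 ratio of −1.41. *Thbs1* is also known as an early response gene to serum and growth factors. Of 11 immediate-early genes tested, *Fosb*, *Atf3*, *Fos*, *Dusp1* and *Ier3* were more than 1.5-fold lower in the same library. In all, 8 of the 11 were lower and 3 were higher, with *Egr2* the highest at 0.38. The part of this in the value of *Thbs1* was not tested.

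Other cell-cycle targets were mostly lower, with a median log2 ratio of −0.17. None of them passed 1.5-fold, where 3.26% of all genes tested passed in either direction. Of 10, 2 were higher and 8 lower, where 53.7% of all genes tested were higher. *Sfn*, the checkpoint protein 14-3-3 sigma, had an RPKM of 5.94 in the control and 8.31 in the mutant, a log2 ratio of 0.42. *Gadd45a*, a sensor of growth arrest and DNA damage, had 17.5 and 13.8, a log2 ratio of −0.33. The 2 most abundant of this list were *Ppm1d*, the phosphatase that switches off p53 signalling, with a log2 ratio of −0.19 and an interval below 0, and *Btg2*, an antiproliferative gene, with −0.03 and an interval that spanned 0.

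The 8 DNA repair targets were divided, with 4 higher, 4 lower and a median log2 ratio of 0.056. The largest differences were those of *Mgmt*, which removes alkyl groups from guanine, at −0.27, and of *Polk*, a translesion polymerase, at 0.25. *Rps27l*, a ribosomal protein gene induced by p53, was the most abundant, with an RPKM of 337 in the control and 311 in the mutant and a log2 ratio of −0.11. *Rrm2b*, the p53-induced subunit of ribonucleotide reductase, had a log2 ratio of 0.13. None of the 8 passed 1.5-fold, where 3.26% of all genes tested passed in either direction.

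Among 12 other apoptosis targets tested, 4 were higher and 8 were lower, where 53.7% of all genes tested were higher. Their median was −0.032 and none passed 1.5-fold, where 3.26% of all genes tested passed in either direction. *Aen*, an exonuclease that acts in apoptosis, had an RPKM of 37.9 in the control and 29.2 in the mutant, and a log2 ratio of −0.37. *Siva1*, a proapoptotic gene, had 131.6 in the control and 102.2 in the mutant, a log2 ratio of −0.36. The intervals of both genes stayed below 0, whereas *Ei24*, with a like abundance, had a log2 ratio of −0.02. Of 11 metabolic and stress targets tested, 6 were higher and 5 lower, with a median of 0.043. *Ddit4*, an inhibitor of mTORC1 that responds to many stresses, had an RPKM of 93.0 in the control and 113.7 in the mutant, a log2 ratio of 0.29. *Abhd4*, a lipid hydrolase, had a log2 ratio of 0.14 and *Gls2*, a mitochondrial glutaminase, one of 0.18. No gene of this list had an interval below 0, against 17.5% of all genes, and 3 of the 11 had one above 0, against 19.8%. *Ddit4* was the highest of the list. *Sesn1*, a relative of *Sesn2*, had a log2 ratio of 0.06 and an interval that spanned 0.

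p53 lowers many cell-cycle genes indirectly, through p21 and the DREAM repressor complex. Of 13 such genes, 1 was higher and 12 were lower in the mutant, where 53.7% of all genes tested were higher. The interval stayed below 0 for 10 of them, against 17.5% of all genes. None passed 1.5-fold, where 3.26% of all genes tested passed in either direction, and the median log2 ratio was −0.26. *Cdc25c*, the phosphatase that starts mitosis, had an RPKM of 10.7 in the control and 7.36 in the mutant, a log2 ratio of −0.49. *Ccnb1*, cyclin B1, had 95.3 in the control and 70.6 in the mutant, a log2 ratio of −0.43, and *Bub1b*, a spindle checkpoint gene, had −0.40. These genes are expressed in every dividing cell. The interval of *Cdkn1a* itself spanned 0 at the gene length used for it, and not at a greater length given above. The germ cell markers had a summed RPKM of 456 in the control and 347 in the mutant. In the marker lists of spermatogonia and meiosis, the genes past 1.5-fold with 1 added to the RPKM were all lower. They were *Nanos3* at −0.99, *Sall4* at −0.71, *Dmrtb1* at −0.79, *Stra8* at −0.61 and *Smc1b* at −1.11. Of the 10 undifferentiated markers 3 were higher and 7 lower, and of the 5 differentiating markers 1 was higher and 4 lower. The highest was *Nanos2* at 0.49, from a low RPKM of 1.01 in the control and 1.83 in the mutant. With a pseudocount of 0.1, 1 undifferentiated marker was more than 1.5-fold higher. The real-time RT-PCR of the study, given above, found *Stra8* similar in both genotypes and *Smc1b* lower. The part of p21 and that of the germ cell values in the values of the cell-cycle genes were not tested.

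**Figure D4:**
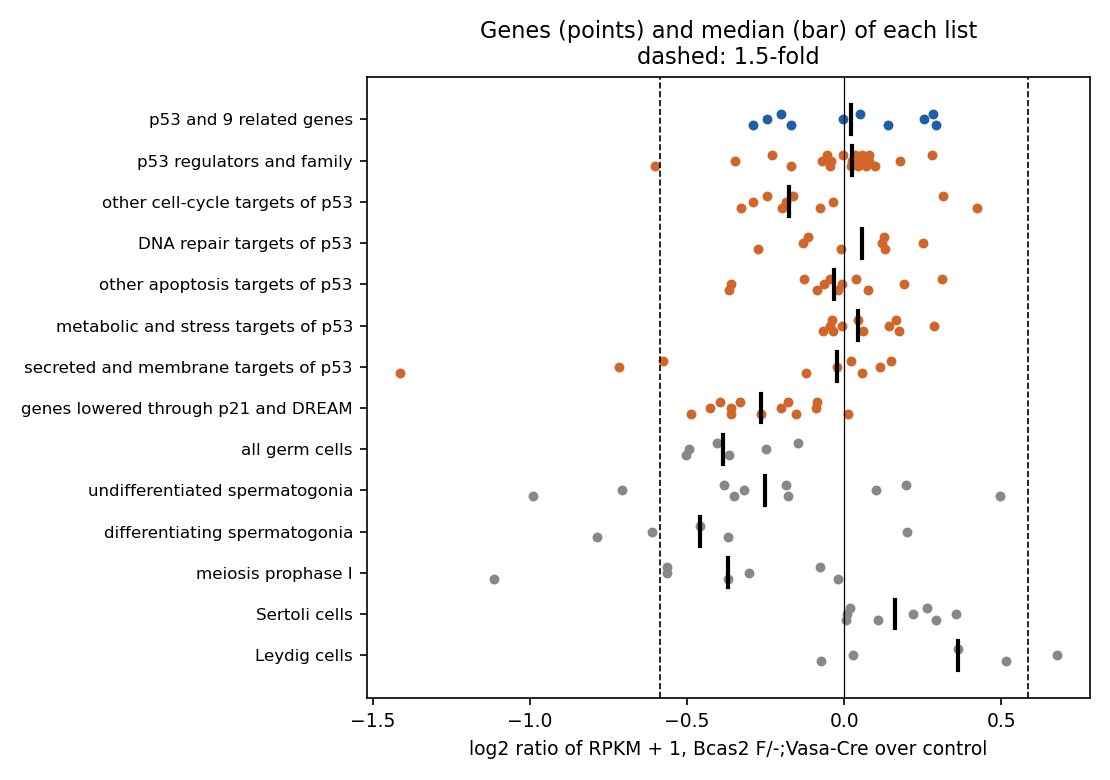
Log2 ratio of RPKM + 1, Bcas2 F/-;Vasa-Cre over control, of each tested gene (points) and the median (bar) for the 10 genes (blue), the lists of the p53 pathway (orange) and the cell type markers (grey). Dashed lines mark 1.5-fold. The lists of p53 targets centre near 0 apart from the cell-cycle targets at −0.17, whereas the genes lowered through p21 and DREAM have a median of −0.26.

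The response elements were also set beside the values across all genes. Of 10645 tested genes with a promoter window, 194 held an element with at most 3 mismatches. Their median log2 ratio was −0.0060, against 0.011 for the 10451 genes without one. In the mutant 91 were higher and 103 lower, where 5619 of all 10645 were higher and 5026 lower. Among them, 1 of the 194 (0.515%) was more than 1.5-fold higher and 2 (1.03%) were more than 1.5-fold lower, against 0.413% and 1.14% of all 10645. The 6 genes with at most 1 mismatch had a median of −0.157, with 1 higher and 5 lower, and none passed 1.5-fold. They include *Cdkn1a*, *Ccng1* and 2 others of the pathway lists named after their values were seen, *Gtse1*, which moves p53 out of the nucleus, at −0.20, and *Rps27l* at −0.11. Of the 41 other p53 targets with a window, 6 (14.6%) held an element with at most 3 mismatches, against 1.82% of all tested genes.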

How the data were processed

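Total RNA of whole P9 testes was sequenced in pairs from 1 control and 1 Bcas2 F/-;Vasa-Cre library prepared with the NEBNext Ultra kit. The authors removed adaptors and low-quality reads, aligned with TopHat2 2.0.9 to mm10, assigned reads to genes with HTSeq and deposited the resulting RPKM. The annotation release and gene lengths behind them are not given in the sources used here. Identifiers were matched to GENCODE M21 on GRCm38 (37606 of 39695 entries). Log2 ratios of RPKM + 1 were computed where the RPKM averaged at least 1 over the libraries, and 1.5-fold was the limit for a call, with no test. Whole reads were recovered from the steps of the RPKM values (99.6% of 22040 genes above 0 in both libraries lay within 0.05 reads of a whole number). Since each gene's length was chosen to give whole reads, this share does not check the reads. They summed to 101.3% of the control and 101.1% of the mutant library size, so that some are too high. Of 16450 genes with several transcripts and whole reads, 7310 had a length within 0.5 base of the annotated mean. Intervals of 95% (Clopper-Pearson) were drawn from these reads. The intervals cover counting error only, since reads carry no molecular identifiers. A gene's reads can be off by a whole factor where its length is uncertain. The procedure was tested on simulated data. The 10 genes and all lists were chosen with earlier results of these data known. Of each pathway list, genes past 1.5-fold were named, otherwise those with the highest mean RPKM and the largest log2 ratios. Not all genes past 1.5-fold in the marker lists were named. The values of 1 gene of the lists are not reported here. Promoter sequences came from RefSeq. Python 3.11.15, numpy 2.4.6, pandas 2.3.3, scipy 1.17.1, matplotlib 3.10.9 and BLAST+ 2.17.0 were used. Alternatives were other pseudocounts, scalings and filters and a call that also required the interval. The authors' own test of differential expression was not used.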

Additional observations from a re-analysis of the deposited data

How the results depend on the processing

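None of the 10 genes passed 1.5-fold under any of the 7 alternatives, and each log2 ratio moved by less than its counting interval under each alternative that gave it. *Bbc3*, at −0.0034, changed sign when each library was brought to an RPKM sum of 1000000, at 0.021. *Bbc3* and *Pmaip1* were left out at a mean RPKM of at least 5, where the median of the remaining genes was −0.060 in place of 0.023. The count of all genes more than 1.5-fold higher or lower depended on the treatment of low values, and the cause was not tested otherwise. It was 233 and 251 as reported, 454 and 457 with a pseudocount of 0.1, 491 and 485 with a pseudocount of 0.01, 511 and 468 with no filter and 46 and 104 at a mean RPKM of at least 5. After bringing each library to an RPKM sum of 1000000, 434 were higher and 356 lower, and with the counting interval also past 0 it was 111 and 188. The count of other p53 targets more than 1.5-fold lower was 2 as reported and ran from 1 to 3 under the alternatives. It was 3 with a pseudocount of 0.1 or 0.01. *Tap1*, a gene of the secreted and membrane list named here for this reason, lay just short of the limit at −0.58. Other lengths of *Cdkn1a* and *Phlda3* would narrow their intervals and bring both below 0. They would run from −0.62 to −0.080 for *Cdkn1a* at 2344 bases and from −0.34 to −0.020 for *Phlda3* at 2004 bases. No paired analysis was possible because each genotype had 1 library.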
